A study of Mus musculus with 10 samples.

Results

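Transcript levels of 37 genes for splicing factors were examined in mouse hematopoietic stem cells (HSCs), which reside in bone marrow and give rise to all blood lineages. The genes were chosen by their symbols, as 20 heterogeneous nuclear ribonucleoproteins (hnRNPs, symbols that begin with Hnrnp), 11 SR proteins (Srsf and a number), the DEAD-box helicase genes Ddx5 and Ddx17, the 3 Luc7-like genes Luc7l, Luc7l2 and Luc7l3, and Rsrp1. They were also selected on level, as a deposited log2 value above 0 in at least 2 libraries, which all 37 genes with a matching symbol met. Srsf12, the gene nearest to this limit, was above 0 in 8 of the 10 libraries. The 37 genes are part of 15143 that met this condition among 20270 genes in the deposited table. The annotation holds 37 protein-coding genes whose symbols match, and all of them are in the table.

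HSCs had been sorted by flow cytometry from primary recipient mice transplanted with lineage-negative bone marrow cells of Id1-/- (knockout, KO) or Id1+/+ (wild-type, WT) donors, all labelled C57BL/6. The 4 groups are KO stressed (2 libraries), WT stressed (2 libraries), KO normal (3 libraries) and WT normal (3 libraries), so transplantation is common to all of them. The labels do not define stressed and normal and do not say whether replicates are separate animals or pools. The time since transplantation is 4 weeks in the labels but 6 weeks in the text on the design. The p-values therefore measure the spread between these libraries, which may be technical.

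In the nucleus, hnRNPs coat nascent RNA and often repress the use of nearby exons, while SR proteins bind exonic enhancers and recruit the spliceosome through their arginine- and serine-rich domains. DEAD-box proteins use ATP to remodel RNA duplexes and RNA-protein complexes, and Luc7-like proteins are relatives of a yeast protein that helps the U1 particle to recognise 5′ splice sites. Blood stem cells depend on correct splicing, and mutations of splicing factor genes, SRSF2 among them, are common in human myelodysplastic syndromes. Id1 encodes an inhibitor that binds E proteins and keeps them from their DNA sites, the E-boxes.

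Levels are given in CPM, counts scaled to a common library total, taken back from the deposited log2 values. Each difference is that of mean log2 CPM between groups, KO-labelled minus WT-labelled or stressed minus normal, with limma's standard error (SE). A gene is called when its Benjamini-Hochberg adjusted p over all 15143 genes is under 0.05, and "rose" and "fell" are used only of called genes. A lack of overlap between groups restates the values behind a call and adds no support to it. The share of all genes without overlap was not counted. Estimated depth was 25700000 to 33000000 reads per library, so 1 CPM stood for 26 to 33 reads. Id1 went against its label, with 9.06 and 8.44 CPM in KO-labelled stressed libraries, against 1.28 and 4.39 CPM in WT-labelled stressed libraries. It had 13.2, 10.6 and 9.62 CPM in KO-labelled normal libraries, against 1.35, 1.72 and 3.17 CPM in WT-labelled normal libraries (difference 2.5, SE 0.45, limma adjusted p = 0.018). Which exons of Id1 these reads came from cannot be read from a per-gene value, and every direction between genotypes below rests on the labels. In a principal component analysis, KO-labelled normal library A stood apart from the other 9 on the component with 12.5% of the variance (score 100.04, against -31.3 to 12.9). WT-labelled stressed library A lay farthest out on the component with 13.1% (score -83.0, against -20.3 in WT-labelled stressed library B). All 20 HSC markers met the condition on level, but so did all 10 megakaryocyte and 13 of 14 erythroid markers. Meeting it therefore does not set the labelled cell type apart from others.

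Because Id1 acts on factors that bind E-boxes, the promoter windows of the 5 genes called between genotypes are shown, each reaching from 250 bases before to 50 bases after a gene start (RefSeq, build GRCm38.p6). The windows are chr15:79546692-79546991 on the minus strand for Ddx17, chr11:106788445-106788744 on the minus strand for Ddx5, chr1:178337766-178338065 on the minus strand for Hnrnpu, chr12:80945249-80945548 on the plus strand for Srsf5 and chr4:134923375-134923674 on the plus strand for Rsrp1. Capitals mark each E-box word CANNTG, which reads the same on both strands.
Ddx17: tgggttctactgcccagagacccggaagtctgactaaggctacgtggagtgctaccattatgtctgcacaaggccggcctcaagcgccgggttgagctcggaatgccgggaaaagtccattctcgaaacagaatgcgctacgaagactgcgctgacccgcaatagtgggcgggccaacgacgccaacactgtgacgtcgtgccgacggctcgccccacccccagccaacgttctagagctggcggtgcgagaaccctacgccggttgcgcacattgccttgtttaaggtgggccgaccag
Ddx5: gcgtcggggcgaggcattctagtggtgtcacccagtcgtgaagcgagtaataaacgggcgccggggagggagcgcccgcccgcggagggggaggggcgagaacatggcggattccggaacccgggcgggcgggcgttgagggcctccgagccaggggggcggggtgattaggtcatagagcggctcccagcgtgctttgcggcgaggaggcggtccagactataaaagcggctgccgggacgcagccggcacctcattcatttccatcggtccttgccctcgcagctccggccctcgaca
Hnrnpu: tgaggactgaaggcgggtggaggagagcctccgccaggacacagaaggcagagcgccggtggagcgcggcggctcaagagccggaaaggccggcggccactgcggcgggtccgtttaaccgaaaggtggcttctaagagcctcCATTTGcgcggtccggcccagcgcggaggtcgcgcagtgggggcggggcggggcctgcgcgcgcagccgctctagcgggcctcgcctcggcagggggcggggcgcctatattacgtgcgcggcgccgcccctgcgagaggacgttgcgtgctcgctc
Srsf5: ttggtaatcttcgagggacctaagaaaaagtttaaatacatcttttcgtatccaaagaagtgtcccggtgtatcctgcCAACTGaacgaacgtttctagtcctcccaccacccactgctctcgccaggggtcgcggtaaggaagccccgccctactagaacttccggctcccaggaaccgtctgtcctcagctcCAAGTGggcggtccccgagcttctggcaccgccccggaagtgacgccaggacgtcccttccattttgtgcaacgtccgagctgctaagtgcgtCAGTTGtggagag
Rsrp1: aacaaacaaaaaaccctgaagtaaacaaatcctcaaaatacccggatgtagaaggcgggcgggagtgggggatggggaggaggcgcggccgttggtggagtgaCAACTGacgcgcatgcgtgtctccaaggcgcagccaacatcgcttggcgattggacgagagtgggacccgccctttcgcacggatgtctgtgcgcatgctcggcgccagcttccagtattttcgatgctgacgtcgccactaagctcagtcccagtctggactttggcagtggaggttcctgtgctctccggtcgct
Srsf5 held 3 such words, Rsrp1 and Hnrnpu held 1 each, and the windows of Ddx17 and Ddx5 held 0. For Ddx5, 3 starts are listed and for Ddx17, 2 starts, of which 1 each is shown. The word was found in 59.2% of the 49 windows listed for 34 of the 37 genes, and in 72.3% of all 32851 windows in the table. For CAGCTG, a subset of CANNTG, the shares were 10.2% of the 37 genes' windows and 16.3% of all windows. For CACCTG or its reverse complement CAGGTG, another subset, they were 10.2% of the 37 genes' windows and 20.2% of all windows. These matches are a description of letters in a window and no sign of binding.

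The 37 genes together took 1.41% to 1.55% of the reads in each library, and most were abundant. All except Srsf12 reached at least 27.1 CPM in every library, and their mean levels lay at or above the percentile 54.4 of the genes tested. Per kilobase of exon, Rsrp1 had the highest mean level at 382 CPM per kilobase, followed by Srsf5 (241), Hnrnpa2b1 (232) and Hnrnpk (222). Among the lowest per kilobase were Hnrnpul2 (4.92), Luc7l2 (4.27) and Srsf12 (0.707). Without length, the most abundant transcripts were Hnrnpa2b1, an hnRNP that binds purine-rich RNA, with a mean of 1529 CPM, and Hnrnpk, which binds cytidine-rich RNA, with 1436 CPM. Hnrnpul2 stood at 28.7 and 34.1 CPM in KO-labelled stressed, 27.1 and 41.2 in WT-labelled stressed, 34.1, 43.2 and 34.1 in KO-labelled normal, and 34.8, 37 and 35.7 CPM in WT-labelled normal libraries, with overlapping genotypes in both conditions. Srsf12, an SR protein that is scarce in these cells, had 2.82 and 0.0167 CPM in KO-labelled stressed and 1.04 and 2.02 CPM in WT-labelled stressed libraries. It had 4.16, 3.72 and 3.28 CPM in KO-labelled normal and 2.3, 0.523 and 2.38 CPM in WT-labelled normal libraries. The value of 0.0167 CPM is the lowest in the table and stands for 0 reads, so Srsf12 differences rest on few reads, with an SE of 1.4 to 2.3. Its genotypes overlapped in stressed and not in normal HSCs, and it was not called in any comparison.

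**Figure D1:**
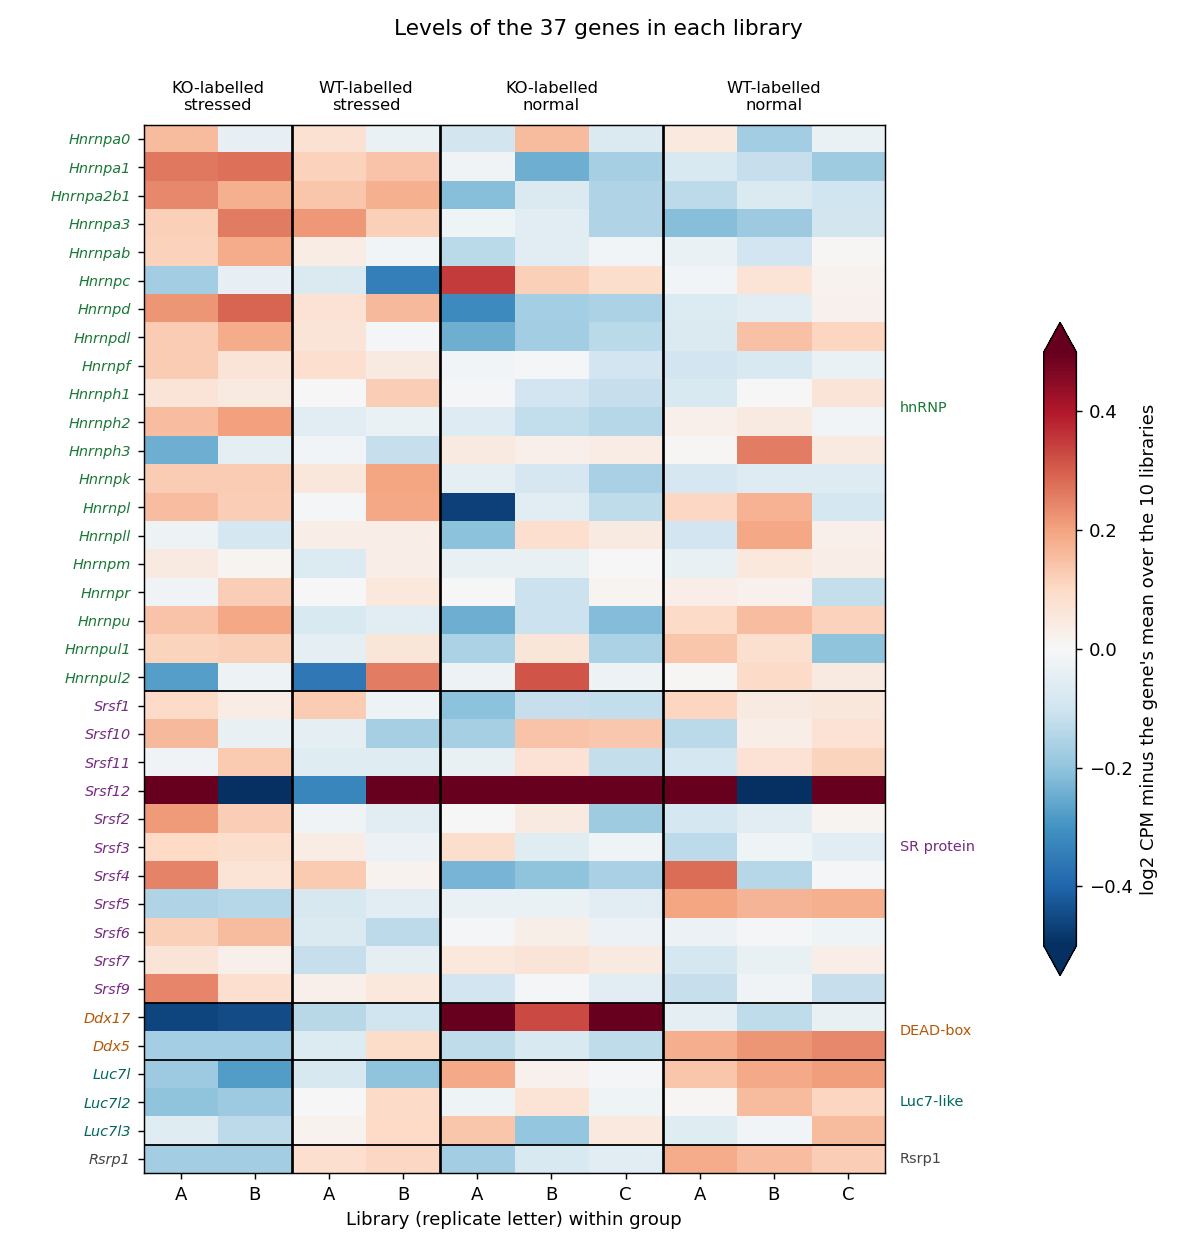
Level of each of the 37 genes (rows, by family) in each of the 10 libraries (columns, by group), as log2 CPM minus the mean of the gene over the libraries, with the colour scale ending at 0.5 in both directions. Srsf12 exceeds the scale because of its low counts, Ddx17 is lowest in the KO-labelled stressed and highest in the KO-labelled normal libraries, and most hnRNP rows are higher in the stressed than in the normal KO-labelled libraries.

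The genotypes were compared first in the normal condition. Ddx17 rose in KO-labelled cells, while its paralog Ddx5, the nuclear scaffold protein gene Hnrnpu, the SR protein gene Srsf5 and Rsrp1 fell. These 5 calls among the 37 genes compare with 1.56% of all genes called. The 1 gene that rose stands beside 1.23% of all genes called higher, and the 4 that fell beside 0.324% called lower. Abundant genes were called more often, so counts are also given for the 592 genes at or above the median level of the 37 (8.06 on the log2 scale), which include 19 of the 37. In that range 4 of the 19 were called, beside 14.9% of the 592 genes. All 4 fell, beside 4.05% called lower, and 0 of the 19 rose, beside 10.8% called higher. The median difference was -0.038 over the 37 genes and -0.008 over all genes tested.

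In build mm10 (GENCODE vM21), Ddx17 lies at chr15:79527736-79546741, Ddx5 at chr11:106780355-106789185 and Hnrnpu at chr1:178321108-178337797, all on the minus strand, and Srsf5 at chr12:80945504-80950507 and Rsrp1 at chr4:134923592-134927671, both on the plus strand. Ddx17, an RNA helicase that also acts in microRNA processing, stood at 146, 128 and 144 CPM in KO-labelled normal libraries, against 98.4, 92.8 and 98.8 CPM in WT-labelled normal libraries. All KO-labelled values lay above all WT-labelled values, and the difference was 0.53 (SE 0.080, limma adjusted p = 0.0058). Ddx5, the more abundant helicase of this pair, had 848, 878 and 848 CPM in KO-labelled normal libraries, against 1049.5, 1083 and 1100.3 CPM in WT-labelled normal libraries. These groups did not overlap either, in the opposite direction, and limma gave -0.33 (SE 0.042, adjusted p = 0.0023). In KO-labelled normal libraries the Ddx17 level was 17.2%, 14.5% and 17% of the Ddx5 level in CPM, against 9.38%, 8.57% and 8.98% in WT-labelled normal libraries. It was 8.92% and 9.04% in KO-labelled stressed libraries, against 10.5% and 9.59% in WT-labelled stressed libraries. The ratio was thus high in KO-labelled normal libraries, where each value exceeded those of the other 7 libraries.

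**Figure D2:**
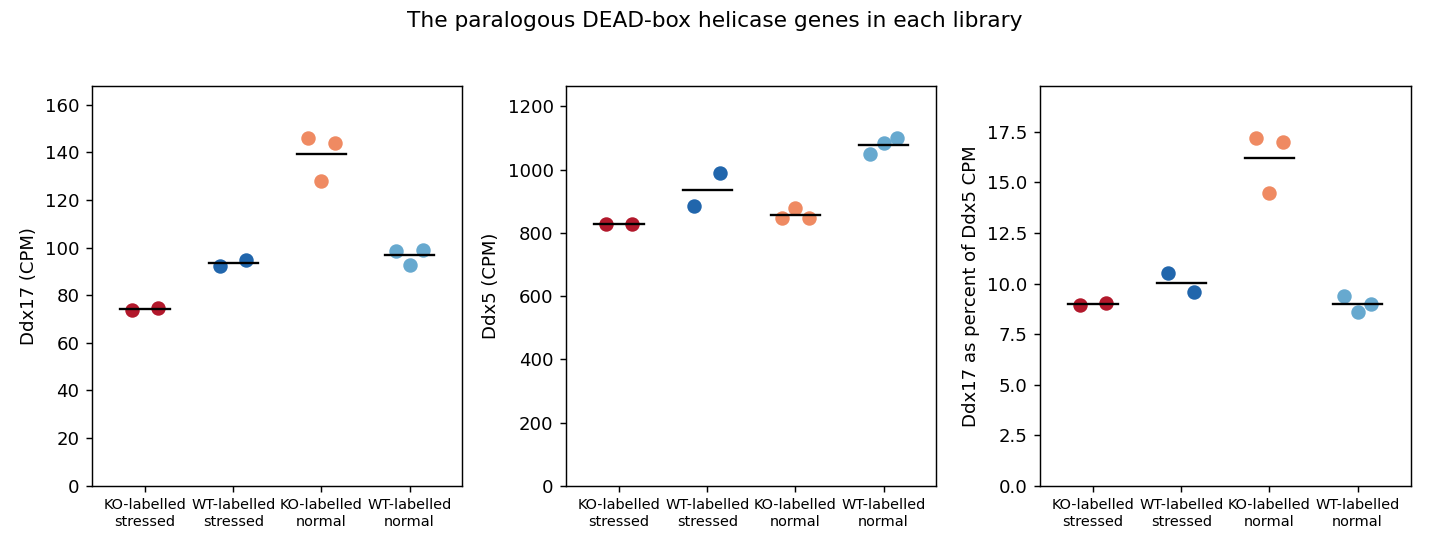
Levels of Ddx17 and Ddx5 in CPM and the level of Ddx17 as a percentage of that of Ddx5, for each library (points) by group, with group means as lines and axes that start at 0. Ddx17 spans 128 to 146 CPM in the KO-labelled normal libraries and stays below 100 CPM in the other 3 groups, whereas Ddx5 is highest in the WT-labelled normal libraries.

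Hnrnpu, which links RNA to chromatin and is needed for the nuclear retention of long noncoding RNAs, had 906, 994 and 926 CPM in KO-labelled normal libraries, against 1144, 1195 and 1161 CPM in WT-labelled normal libraries. The KO-labelled values were all lower, and the difference was -0.31 (SE 0.039, limma adjusted p = 0.0022). Srsf5, a shuttling SR protein, had 934, 934 and 921 CPM in KO-labelled normal libraries, against 1100.3, 1073 and 1083 CPM in WT-labelled normal libraries (difference -0.22, SE 0.029, limma adjusted p = 0.0023). Rsrp1, a little-studied arginine- and serine-rich protein, had 1125, 1209 and 1226 CPM in KO-labelled normal libraries, against 1444, 1417 and 1392 CPM in WT-labelled normal libraries (difference -0.26, SE 0.035, limma adjusted p = 0.0032). For both genes the groups did not overlap. Equal values in 2 of the 3 KO-labelled normal libraries, for Ddx5 and Srsf5, arise because quantile normalization gives genes of one rank one value, so their SE is understated. The fit pools the spread of all 4 groups, so equal values of Rsrp1 in the KO-labelled stressed libraries act on its SE here too.

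These 5 calls were present when any of the 10 libraries was left out, the outlying KO-labelled normal library A included, where the differences were 0.49 for Ddx17, -0.32 for Ddx5, -0.28 for Hnrnpu, -0.23 for Srsf5 and -0.22 for Rsrp1. All 5 were lost when the variance was not allowed to follow the mean level, with adjusted p from 0.059 to 0.2. Below the threshold in normal HSCs were the other 32 genes. Of the 20 hnRNPs 15 had a difference below 0, among them Hnrnpl, which binds CA repeats (-0.28, adjusted p = 0.27), and Hnrnpdl (-0.24, adjusted p = 0.14). Of the 11 SR protein genes 5 lay below 0, and the 3 Luc7-like genes lay between -0.11 and -0.029. The granulocyte and monocyte markers moved in the same comparison. Their summed level was 443 to 484 CPM in KO-labelled and 347 to 386 CPM in WT-labelled normal libraries, 1 of 14 tested was called higher (Mpo, 2.27), Ltf in KO-labelled and Fcnb in WT-labelled normal libraries were at the lowest value, and their part in the splicing factor differences was not tested. Bulk values cannot tell fewer cells of a type from less RNA per cell.

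In the stressed condition, with 2 libraries per genotype, Rsrp1 fell in KO-labelled HSCs and was the 1 gene of the 37 called. It had 1125 CPM in both KO-labelled stressed libraries, against 1354 and 1372 CPM in WT-labelled stressed libraries, and limma gave -0.28 (SE 0.042, adjusted p = 0.04). That is close in size to its difference in normal HSCs, and the interaction was -0.019 (SE 0.055, limma adjusted p = 0.95). The 1 gene that fell compares with 0.145% of all genes called in either direction and 0.0594% called lower, and 0 of the 37 rose beside 0.0858% of all genes called higher. In the abundant range 1 of the 19 was called, beside 0.676% of the 592 genes (0.507% lower and 0.169% higher). By limma 10 of the 37 had an unadjusted p under 0.05, as did 1344 of all 15143 genes. The identical KO-labelled values again leave the SE understated. Leaving out any single stressed library ended this call, with adjusted p of 0.14 and 0.19 for KO-labelled libraries A and B and of 0.082 and 0.1 for WT-labelled libraries A and B. So did leaving out any WT-labelled normal library (0.064, 0.086 and 0.08 for A, B and C), while the difference stayed between -0.29 and -0.27.

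After Rsrp1, the smallest p-values in stressed HSCs belonged to Hnrnpu and Srsf6, neither called. Hnrnpu stood at 1181 and 1226 CPM in KO-labelled stressed libraries, against 1014 and 1034 CPM in WT-labelled stressed libraries (0.23, SE 0.047, limma adjusted p = 0.12), the opposite sign to normal HSCs. Srsf6, an SR protein that binds exonic enhancers, had 371 and 381 CPM in KO-labelled stressed libraries, against 327 and 313 CPM in WT-labelled stressed libraries (0.23, SE 0.055, limma adjusted p = 0.23). Its normal values were 340.5, 349.6 and 335 CPM in KO-labelled libraries, against 336, 340.1 and 337 CPM in WT-labelled normal libraries. The stressed groups did not overlap for either gene, and for Srsf6 the normal groups did. Ddx17 and Ddx5 both had lower values in KO-labelled stressed libraries, with differences of -0.33 and -0.18 that did not pass (both limma adjusted p = 0.33). Of the hnRNP and SR protein genes together, 24 of 31 had a difference above 0 in stressed HSCs and 11 of 31 in normal HSCs. Across the 37 genes, 19 had the same sign in both conditions (51.4%, against 53.9% of all genes). Plasma and B cell markers differed in the stressed comparison. Their summed level was 505 to 515 CPM in KO-labelled and 221 to 246 CPM in WT-labelled stressed libraries, with 3 of 9 tested called higher, Igll1 at the lowest value in both groups, and a part in these differences that was not tested.

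**Figure D3:**
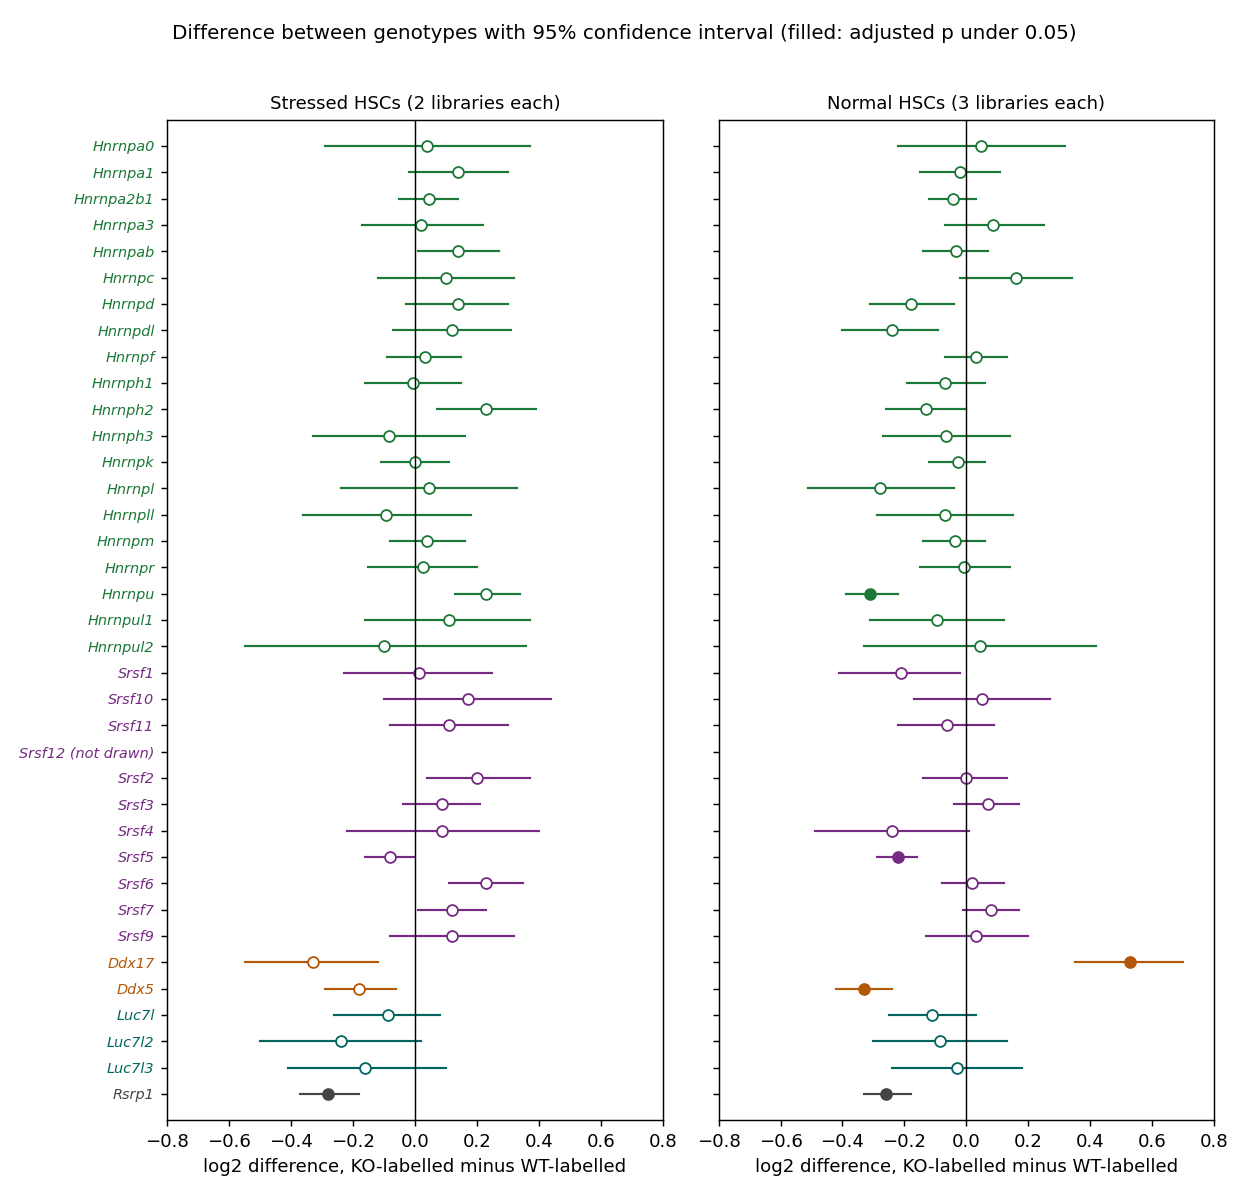
Log2 difference, KO-labelled minus WT-labelled, with its 95% confidence interval from limma for 36 genes in stressed (left) and normal (right) HSCs, filled where the adjusted p was under 0.05 and coloured by family. Srsf12 is not drawn because its intervals exceed the axis, Rsrp1 is filled in both panels, and Ddx17 and Hnrnpu lie on opposite sides of 0 in the 2 conditions.

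Stressed and normal HSCs were then compared within each genotype. In KO-labelled HSCs, 8 hnRNP genes rose under stress, while Ddx17 and Luc7l fell. The 10 calls (27% of the 37) compare with 4.5% of all genes. The 8 that rose stand beside 2.23% of all genes called higher, and the 2 that fell beside 2.28% called lower. Among the 19 in the abundant range 7 were called, beside 21.5% of the 592 genes, of which 6 rose, beside 11.1%, and 1 fell, beside 10.3%. Plasma and B cell markers moved in the same comparison, at 505 to 515 CPM in KO-labelled stressed and 254 to 283 CPM in KO-labelled normal libraries in sum, and their part in these calls was not tested. The median difference was 0.21 over the 20 hnRNPs, of which 16 lay above 0, and 0.09 over the 37, against 0.0 over all genes. The summed hnRNP level was 9092 and 9174 CPM in KO-labelled stressed libraries, against 7733 to 7983 CPM in KO-labelled normal libraries. It was 8560.3 and 8784 CPM in WT-labelled stressed libraries, against 8118 to 8378 CPM in WT-labelled normal libraries.

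The genes that rose in KO-labelled HSCs include close relatives. Hnrnpa1, which antagonises SR proteins at exons, had 392 and 393 CPM in KO-labelled stressed libraries, against 321, 275 and 289.9 CPM in KO-labelled normal libraries (0.41, SE 0.067, limma adjusted p = 0.0056). Its relative Hnrnpa2b1 had 1789.6 and 1721 CPM in KO-labelled stressed libraries, against 1312, 1444 and 1372 CPM in KO-labelled normal libraries (0.35, SE 0.040, limma adjusted p = 0.00058). Neither gene had overlapping groups. Hnrnpd, known as AUF1 and a regulator of AU-rich messenger RNAs, had 311 and 326 CPM in KO-labelled stressed libraries, against 214, 237 and 239 CPM in KO-labelled normal libraries, the largest rise of the 8 (0.47, SE 0.068, limma adjusted p = 0.0026). Hnrnpdl, its paralog, had 213 and 223 CPM in KO-labelled stressed libraries, against 166, 174 and 178 CPM in KO-labelled normal libraries (0.34, SE 0.079, limma adjusted p = 0.035). Hnrnpab, of the same subfamily, had 538 and 563 CPM in KO-labelled stressed libraries, against 451, 476 and 489 CPM in KO-labelled normal libraries (0.22, SE 0.053, limma adjusted p = 0.038). Phykpl on the opposite strand overlaps 29.1% of the exon length of Hnrnpab and had 40.2 to 59.8 CPM. Every stressed value of Hnrnpd, Hnrnpdl and Hnrnpab lay above every normal value, as a description of genes called on these values.

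Hnrnpu had 1181 and 1226 CPM in KO-labelled stressed libraries, well above the 906, 994 and 926 CPM of KO-labelled normal libraries (0.35, SE 0.043, limma adjusted p = 0.0009). Hnrnph2, which binds runs of guanine and is X-linked, had 190.4 and 197 CPM in KO-labelled stressed libraries, against 163, 156 and 154 CPM in KO-labelled normal libraries (0.3, SE 0.066, limma adjusted p = 0.029). Hnrnpk had 1559 CPM in both KO-labelled stressed libraries, against 1392, 1354 and 1276 CPM in KO-labelled normal libraries (0.22, SE 0.044, limma adjusted p = 0.017), with an SE that the equal values understate. Gm7964, a near-identical copy of Hnrnpk (99.2% identity), had a mean of 49.7 CPM, so reads may be split between them. No count of calls changed when 11 of the 37 genes were summed with their copies.

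Ddx17 showed the largest change of the 37 genes apart from Srsf12, with 73.8 and 74.8 CPM in KO-labelled stressed libraries, against 146, 128 and 144 CPM in KO-labelled normal libraries (-0.9, SE 0.090, limma adjusted p = 0.00023). Luc7l, a U1-associated factor, had 268 and 250.4 CPM in KO-labelled stressed libraries, against 346, 309 and 303 CPM in KO-labelled normal libraries (-0.3, SE 0.071, limma adjusted p = 0.037). Groups did not overlap in either gene. The other Luc7-like genes also had differences below 0 (Luc7l2 -0.2 and Luc7l3 -0.1), not called. No SR protein gene of the 11 was called by limma in KO-labelled HSCs, although 6 had an unadjusted p under 0.05, with differences of 0.36 for Srsf4, 0.21 for Srsf2, the member mutated in myelodysplastic syndromes, 0.21 for Srsf9, 0.14 for Srsf6, -0.1 for Srsf5 and -4.09 for the scarce Srsf12.

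Calls for Ddx17, Hnrnpa2b1, Hnrnpd and Hnrnpu were present whichever library was left out. The count of 10 was 5 and 4 without KO-labelled stressed library A and B, where Hnrnpa1, Hnrnpab, Hnrnpdl, Hnrnph2, Hnrnpk and Luc7l were lost in both cases and Srsf12 was gained without library A. It was 6 without KO-labelled normal library B, which lost Hnrnpab, Hnrnpdl, Hnrnph2 and Luc7l. It was 7 without KO-labelled normal library A, which lost Hnrnpab (adjusted p = 0.075), Hnrnpdl (0.076) and Luc7l (0.072). Ddx17 and Hnrnpu were also called between genotypes in normal HSCs, a comparison that shares the KO-labelled normal libraries with this one.

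**Figure D4:**
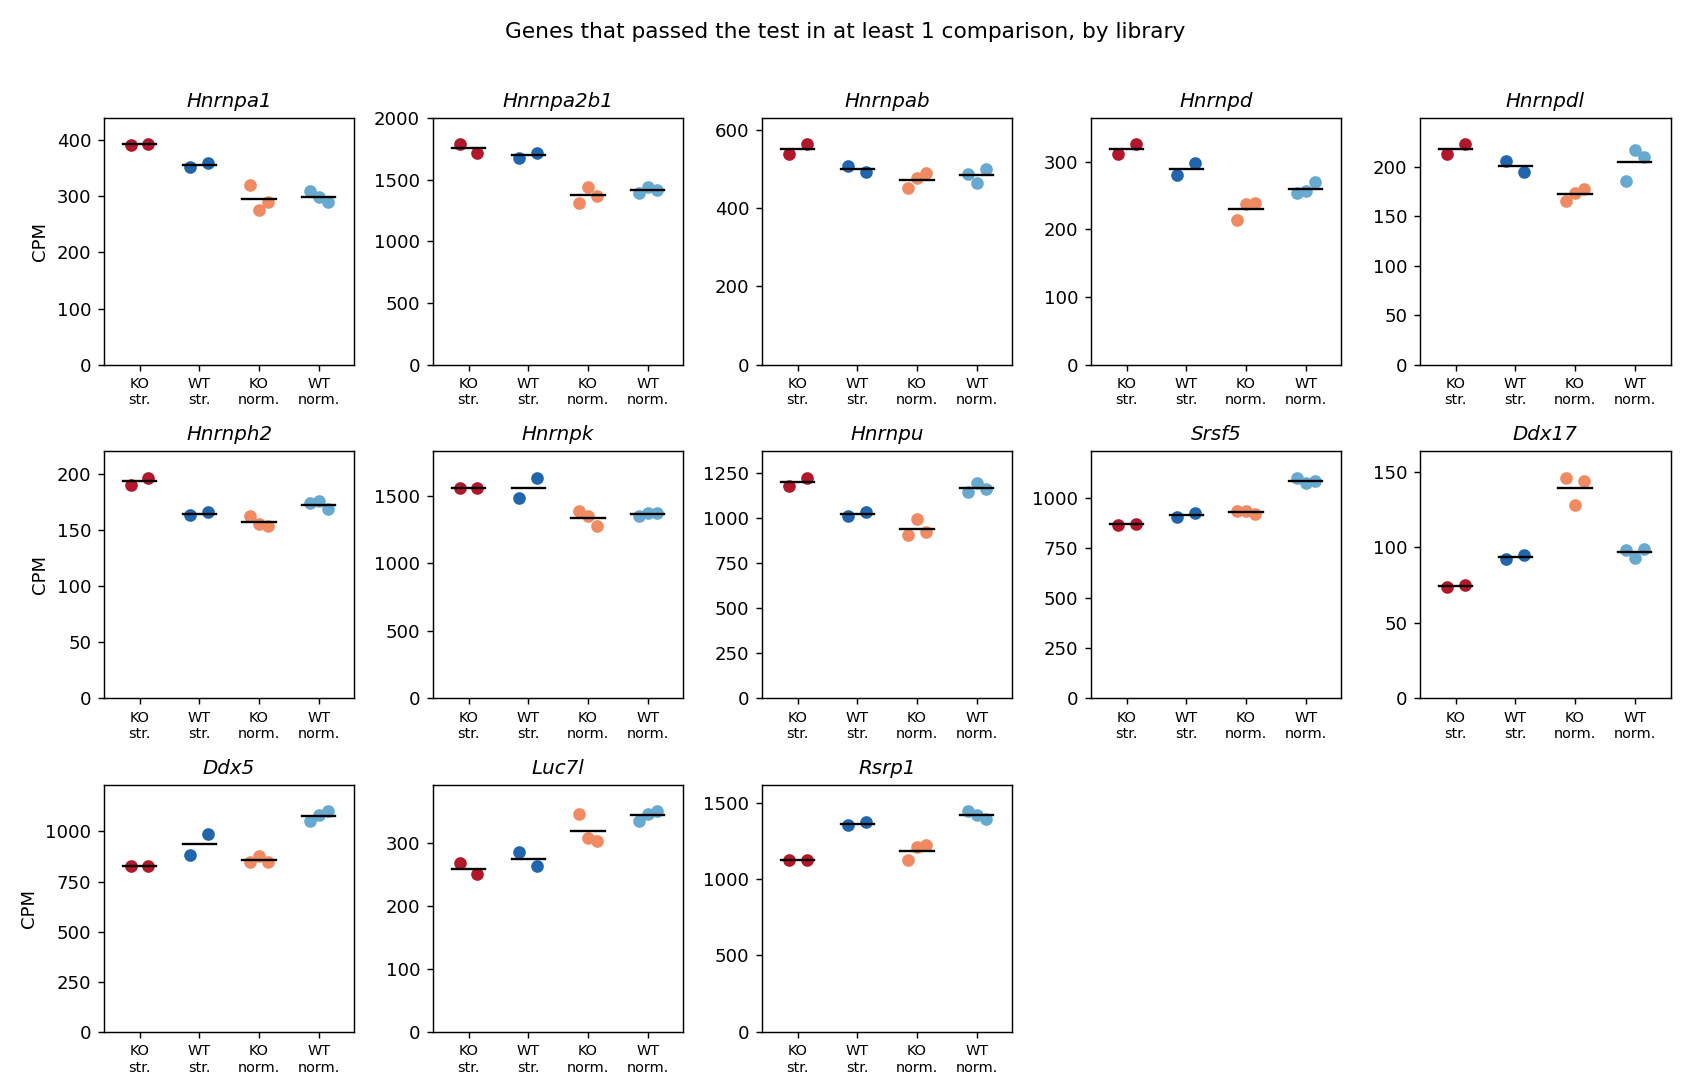
CPM of the 13 genes called in at least 1 comparison, for each library (points) by group, from left to right KO-labelled stressed, WT-labelled stressed, KO-labelled normal and WT-labelled normal, with group means as lines and axes that start at 0. Hnrnpa1 and Hnrnpa2b1 are higher in both stressed groups, Rsrp1 is lower in both KO-labelled groups, and Hnrnpu is lowest in KO-labelled normal libraries.

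In WT-labelled HSCs, Hnrnpa2b1 and Hnrnpk rose under stress, while Srsf5, Ddx5, Luc7l and Hnrnpu fell. The 6 calls (16.2% of the 37) compare with 3.3% of all genes. The 2 that rose stand beside 1.55% of all genes called higher, and the 4 that fell beside 1.75% called lower. All 6 are among the 19 in the abundant range, where 9.8% of the 592 genes were called higher and 6.76% lower. The median difference was -0.006 over the 37 and 0.007 over all genes. Hnrnpa2b1 had 1679 and 1721 CPM in WT-labelled stressed libraries, against 1392, 1444 and 1417 CPM in WT-labelled normal libraries (0.26, SE 0.040, limma adjusted p = 0.0047). Hnrnpk had 1489 and 1636 CPM in WT-labelled stressed libraries, against 1354, 1372 and 1372 CPM in WT-labelled normal libraries (0.19, SE 0.044, limma adjusted p = 0.039), with an SE that equal values again understate. Every stressed value of these 2 genes lay above every normal value.

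Srsf5 had 906 and 926 CPM in WT-labelled stressed libraries, against 1100.3, 1073 and 1083 CPM in WT-labelled normal libraries (-0.25, SE 0.032, limma adjusted p = 0.002). Ddx5 had 884 and 988 CPM in WT-labelled stressed libraries, against 1049.5, 1083 and 1100.3 CPM in WT-labelled normal libraries (-0.21, SE 0.047, limma adjusted p = 0.039). Through the pooled spread, equal values in KO-labelled libraries leave the SE of Srsf5 and Ddx5 understated here as well. Luc7l had 287 and 264 CPM in WT-labelled stressed libraries, against 335, 347 and 351 CPM in WT-labelled normal libraries (-0.32, SE 0.071, limma adjusted p = 0.033). The stressed values of Srsf5, Ddx5 and Luc7l were the lower ones in every library, as a description of genes called on these values. Hnrnpu had 1014 and 1034 CPM in WT-labelled stressed libraries, against 1144, 1195 and 1161 CPM in WT-labelled normal libraries (-0.19, SE 0.043, limma adjusted p = 0.039). In KO-labelled cells Srsf5 and Ddx5 differed by -0.1 and -0.052, neither called. Ddx17 had 92.4 and 94.8 CPM in WT-labelled stressed libraries, against 98.4, 92.8 and 98.8 CPM in WT-labelled normal libraries. These groups overlapped and the gene was not called (-0.046, SE 0.090, 95% interval from -0.24 to 0.15).

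Calls for Hnrnpa2b1 and Srsf5 in WT-labelled HSCs were present whichever library was left out. The count of 6 was 3 without WT-labelled stressed library A, where Ddx5 was -0.12 (adjusted p = 0.28), Hnrnpu -0.17 (0.2) and Luc7l -0.38 (0.065). It was also 3 without WT-labelled stressed library B, where Hnrnpk was 0.12 (0.26), Hnrnpu -0.2 (0.12) and Luc7l -0.26 (0.2), and 3 without KO-labelled stressed library A or B. The count was 2 when any WT-labelled normal library (A, B, C) was left out, and 4 without KO-labelled normal library C. With the trend over gene length removed, the calls for Hnrnpu (-0.11, adjusted p = 0.14), Ddx5 (-0.18, 0.064) and Luc7l (-0.27, 0.088) were lost and Hnrnpa3 was gained.

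Whether stress changed a gene by a different amount in the 2 genotypes was tested as an interaction, the change in KO-labelled minus the change in WT-labelled HSCs. Hnrnpu was the 1 gene of the 37 called, beside 0.0198% of all genes (3 genes). In the abundant range it was 1 of the 19, beside 0.338% of the 592 genes. The interaction of Hnrnpu was 0.54 (SE 0.061, limma adjusted p = 0.016), from a change of 0.35 in KO-labelled and -0.19 in WT-labelled HSCs, both called. Both conditions therefore separated the genotypes without overlap, with KO-labelled values higher in stressed HSCs and lower in normal HSCs. The call was lost without KO-labelled stressed library A or B (adjusted p = 0.054 and 0.12), WT-labelled stressed library A (0.063), KO-labelled normal library C (0.072) or any WT-labelled normal library (0.051, 0.091 and 0.087 for A, B and C), with the difference between 0.51 and 0.58. Cox20, whose exons cover 6.9% of those of Hnrnpu on the opposite strand, had at most 0.72 CPM.

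Fos, an immediate early gene, was another of the 3 genes with a called interaction (2.49, SE 0.32, limma adjusted p = 0.036). It had 15.3 and 14.8 CPM in KO-labelled stressed, 8.63 and 9.75 CPM in WT-labelled stressed, 9.62, 6.04 and 8.94 CPM in KO-labelled normal and 26.6, 29.5 and 26.5 CPM in WT-labelled normal libraries. Other dissociation and immediate early genes moved in the comparisons above. Of the 15 tested, 2 were called higher between stressed genotypes (Hspa1a, 3.19, and Hspa1b, 1.84), 1 lower between normal genotypes (Fos, -1.77), 2 higher and 2 lower under stress in KO-labelled HSCs, 5 lower under stress in WT-labelled HSCs, and 1 had a called interaction. Their summed level was 2588 to 2813 CPM in KO-labelled stressed, 2775 to 2816 CPM in WT-labelled stressed, 2715 to 2837 CPM in KO-labelled normal and 2738 to 2842 CPM in WT-labelled normal libraries. Their part in the Hnrnpu pattern and in the other calls was not tested.

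Ddx17 had the largest interaction after Srsf12, -0.86 (SE 0.13), which did not pass (limma adjusted p = 0.07). It was past the threshold with no filter on low values, with a stricter filter, with a pseudocount of 1 CPM and without KO-labelled normal library B (adjusted p = 0.046), and not under the other 17 of 21 alternatives. Hnrnph2 was next by p, with a change of 0.3 in KO-labelled and -0.066 in WT-labelled HSCs (interaction 0.36, SE 0.094, limma adjusted p = 0.26). Its WT-labelled stressed libraries had 164 and 166 CPM, against 174, 176 and 169 CPM in WT-labelled normal libraries. The changes in the 2 genotypes, which share no library, had the same sign in 26 of the 37 genes (70.3%, against 60.0% of all genes), 15 higher and 11 lower. Spearman's rho between the 2 sets of changes was 0.55 over the 37 genes and 0.28 over all genes. Pearson's r had the opposite order, 0.15 over the 37 genes (Srsf12 included) and 0.25 over all genes. Both are descriptions over genes, which are not independent, and all genes were not matched to the 37 for level. For the other relatives of the hnRNP A group, Hnrnpa3 had differences of 0.26 in KO-labelled and 0.33 in WT-labelled HSCs, not called in either (limma adjusted p = 0.11 and 0.056). Hnrnpc, which binds uridine tracts, had differences of -0.29 and -0.23, also not called.

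**Figure D5:**
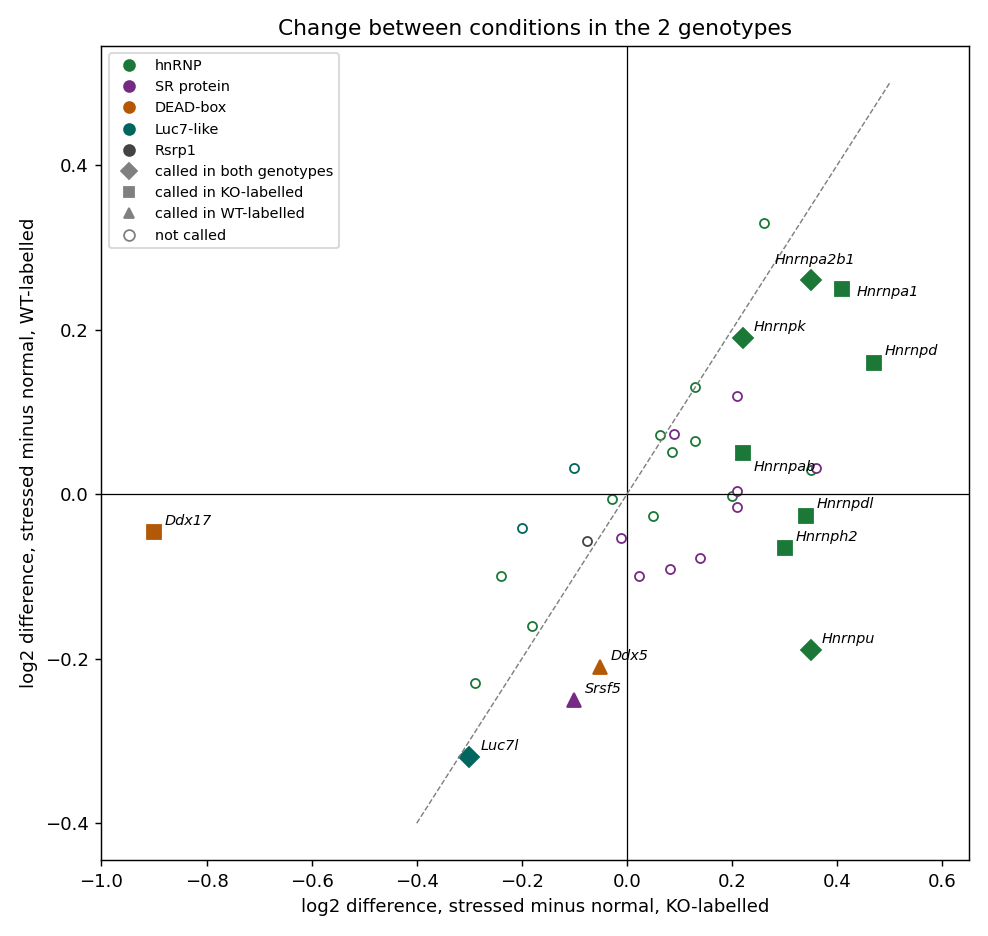
Log2 difference, stressed minus normal, in KO-labelled HSCs (horizontal) and in WT-labelled HSCs (vertical) for 36 genes (Srsf12 left out), coloured by family and shaped by the genotype in which the gene was called, with the dashed line where both changes are equal. Hnrnpa2b1, Hnrnpk and Luc7l lie near the line, Hnrnpu lies at 0.35 and -0.19, and Ddx17 lies at -0.9 and -0.046.

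Other genes of the splicing machinery were counted in lists. Of 15 Sm and LSm core proteins, which form the ring of the spliceosomal snRNPs, 3 rose in KO-labelled normal HSCs: Snrpg (0.55, SE 0.083, limma adjusted p = 0.0058), Snrpe (0.48) and Snrpd2 (0.41). The list median was 0.341 there, against -0.008 over all genes. Of 22 U1, U2 and branch-site factors 1 rose, Sf3b6, a branch-site protein, with 159, 169 and 169 CPM in KO-labelled normal libraries, against 106, 111 and 118 CPM in WT-labelled normal libraries (0.57, SE 0.071, limma adjusted p = 0.0022), and the list median was -0.025. Raly, an hnRNP C relative, rose by 0.5 (SE 0.092, limma adjusted p = 0.02) as 1 of 39 other RNA-binding regulators. Between stressed genotypes the difference of Raly was 0.0096 (limma adjusted p = 0.99). Raly lies on chromosome 2 from base 154791096, and Id1 on the same chromosome from base 152736251. A part of this position in the difference was not tested. Among the 37 genes, 2 lie on chromosome 2 (Srsf6 and Hnrnpa3), neither called between genotypes. None of these lists had a call between stressed genotypes by limma.

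Under stress in KO-labelled HSCs, 5 of the 39 RNA-binding regulators rose and 1 fell. The cold-inducible proteins Rbm3 (0.6) and Cirbp (0.47), the polypyrimidine tract binding proteins Ptbp1 (0.3) and Ptbp3 (0.46) and Ewsr1 (0.34) rose, and Msi2, a regulator of HSC self-renewal, fell by 0.4. In WT-labelled HSCs 1 rose, Rbm3 (0.45). Rbm3 had 287 and 268 CPM in KO-labelled stressed libraries, against 186, 184 and 178 CPM in KO-labelled normal libraries. It had 259.6 and 257 CPM in WT-labelled stressed libraries, against 185, 182 and 200.2 CPM in WT-labelled normal libraries. Rbm39, an SR-related coactivator, fell by 0.24 in KO-labelled and 0.18 in WT-labelled HSCs, and Tra2b (0.26) and Sf3b6 (0.33) rose in WT-labelled HSCs. Of 7 nuclear long noncoding RNAs 2 fell in each genotype, Meg3 and Malat1, a speckle-associated RNA (-0.73 in KO-labelled and -0.58 in WT-labelled HSCs, limma adjusted p = 6.2e-05 and 0.0004). Limma called 0 members in any of the 5 comparisons among 22 tri-snRNP and Prp19 proteins, 9 SR protein kinases, 27 other DEAD/DEAH-box helicases and 15 exon junction and nonsense-mediated decay factors. Unadjusted p-values under 0.05 numbered 2 to 4, 0 to 2, 3 to 7 and 0 to 5 per comparison in these 4 lists.

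Markers of other cells moved with condition. Megakaryocyte markers summed to 2776 to 2797 CPM in KO-labelled stressed and 2181 to 2289 CPM in KO-labelled normal libraries, with 6 of 10 tested called higher and 1 lower. They summed to 2692 to 2732 CPM in WT-labelled stressed and 2445 to 2527 CPM in WT-labelled normal libraries, with 5 called higher and 1 lower. HSC markers summed to 5161 to 5312 CPM in KO-labelled stressed and 5697 to 6075 CPM in KO-labelled normal libraries, and to 5576 to 5761 CPM in WT-labelled stressed and 6541 to 6927 CPM in WT-labelled normal libraries. Of the 20 HSC markers, 6 were called lower and 1 higher under stress in KO-labelled HSCs, and 5 lower and 1 higher in WT-labelled HSCs. Plasma and B cell markers summed to 505 to 515 CPM in KO-labelled stressed and 254 to 283 CPM in KO-labelled normal libraries, with 3 of 9 tested called higher. These were Igkc (7.27), Jchain (5.06) and Ighg2b, which had 109 and 128 CPM in KO-labelled stressed libraries and was at the lowest value in the other 8 libraries. They summed to 221 to 246 CPM in WT-labelled stressed and 245 to 267 CPM in WT-labelled normal libraries, with 0 called by limma and 4 at an unadjusted p under 0.05. Granulocyte and monocyte markers summed to 403 to 405 CPM in KO-labelled stressed and 443 to 484 CPM in KO-labelled normal libraries, with 2 of 14 called lower (S100a8 and S100a9). They summed to 407 to 430 CPM in WT-labelled stressed and 347 to 386 CPM in WT-labelled normal libraries.

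Erythroid markers summed to 1663 to 1674 CPM in KO-labelled stressed and 1747 to 1834 CPM in KO-labelled normal libraries, with Gata1 called higher (0.58) and Car1 lower (-0.79) of 13 tested. They summed to 1688 to 1701 CPM in WT-labelled stressed and 1839 to 1857 CPM in WT-labelled normal libraries, where Car1 (-1.23), Hba-a1 (-2.3) and Hbb-bt (-1.15) were called lower. T and NK cell markers summed to 112 to 113 CPM in KO-labelled stressed and 77.2 to 84 CPM in KO-labelled normal libraries, and to 129 to 135 CPM in WT-labelled stressed and 76.6 to 84.8 CPM in WT-labelled normal libraries. Of 4 tested, Nkg7 was called higher in both genotypes (0.64 in KO-labelled and 1.03 in WT-labelled HSCs). Nkg7 made up most of these sums, with 96 and 95.6 CPM in KO-labelled stressed and 118 and 109.6 CPM in WT-labelled stressed libraries. The median difference over the 4 went the other way, at -0.27 in KO-labelled and -0.887 in WT-labelled HSCs. Cd2 and Trbc2 were at the lowest value in every stressed library, and Cd4 in the KO-labelled stressed libraries. Mast cell and basophil markers summed to 13.3 to 14.6 CPM in KO-labelled stressed and 6.13 to 7.88 CPM in KO-labelled normal libraries, and to 10.9 to 15 CPM in WT-labelled stressed and 6.56 to 9.79 CPM in WT-labelled normal libraries. Stromal and endothelial markers summed to 112 to 117 CPM in KO-labelled stressed and 134 to 143 CPM in KO-labelled normal libraries, and to 140.1 to 155 CPM in WT-labelled stressed and 130.3 to 140.1 CPM in WT-labelled normal libraries. The part of these cells in the splicing factor changes was not tested.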

How the data were processed

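Bulk RNA-seq of sorted mouse HSCs was analysed in 10 libraries. Per the submitters' processing notes, reads were aligned with Bowtie2 to mm10 and counted with featureCounts. The authors deposited log2 CPM values that are quantile normalized, made with limma voom per the table's name. Strandedness is not given in the sources used here, so reads from overlapping genes on opposite strands cannot be told apart. Quantile normalization gives every library one set of values, which produces exact ties and removes any global shift. Depth per library (25700000 to 33000000 reads) was estimated from the steps between the lowest values, and intervals cover only the spread between libraries.

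Genes above 0 on the log2 scale in at least 2 libraries (15143) entered one limma fit (version 3.58.1, R 4.3.3) of 4 group means with a mean-variance trend, 6 residual and 5.19 prior degrees of freedom, and Benjamini-Hochberg adjustment over all genes. The scripts were tested on simulated data. Values per library were printed for every called member, the 3 members with the smallest p per comparison and the 2 most and 2 least abundant members, other members being given by range or family, and from the other splicing lists called genes were named. Fos was named after its values were seen. The 37 members and all lists were chosen with earlier results of these data known. Pseudogene copies were found with blastn 2.17.0 at 95% identity or more over 200 bases. Alternatives were no variance trend, other filters, a pseudocount, other scalings, library weights, a replicate block, a length correction, an adjusted p under 0.1, copies summed, only the compared libraries and leaving out each library.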

Additional observations from a re-analysis of the deposited data

Results flagged for a closer look

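The stress change of Hnrnpu differed between the genotypes by the interaction term of the fit across all genes. It was 0.35 in KO-labelled HSCs (1181 and 1226 CPM stressed, against 906, 994 and 926 CPM normal) and -0.19 in WT-labelled HSCs (1014 and 1034 CPM stressed, against 1144, 1195 and 1161 CPM normal). The difference between these changes was 0.54 (SE 0.061, limma adjusted p = 0.016). It remained called when WT-labelled stressed library B, KO-labelled normal library A or KO-labelled normal library B was left out, and was not called without any of the other 7 libraries.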

How the results depend on the processing

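Of 114 alternative counts, 72 stayed within 1.5 times the reported count, and 0 of 591 alternative values of the 27 differences followed changed direction. These differences were followed because they were called or had the 3 smallest p-values of a comparison. The alternatives reuse the same values, so a kept direction was likely beforehand and is no separate support. Without a variance trend the members called were 0 between stressed genotypes, 0 between normal genotypes, 2 under stress in KO-labelled HSCs, 0 in WT-labelled HSCs and 0 in the interaction. Between stressed genotypes the count was 0 with no filter on low values, with the length trend removed and with the compared libraries alone. Under stress it was 4 in KO-labelled HSCs with the compared libraries alone and 3 in WT-labelled HSCs with no filter. In the interaction it was 2 with no filter, with values above 2, with a pseudocount of 1 CPM and with an adjusted p under 0.1. Leaving out each library gave 0 to 1 call between stressed and 5 to 5 between normal genotypes, 4 to 10 under stress in KO-labelled and 2 to 8 in WT-labelled HSCs, and 0 to 2 in the interaction. Over all genes, the calls without a variance trend numbered 45 against 236 with it between normal genotypes, 346 against 682 under stress in KO-labelled HSCs and 256 against 500 in WT-labelled HSCs.

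With the replicate letter as a block the counts were 0 and 5 between stressed and normal genotypes, 6 and 3 under stress in KO-labelled and WT-labelled HSCs, and 1 in the interaction. The letters mark no stated pairing. Deviations of same-letter libraries correlated at -0.024 to 0.037 over 13 pairs, against -0.037 to 0.04 for other pairs. Same-letter libraries thus shared little deviation over all genes. In groups of 2 libraries the deviations from the group mean are equal and opposite, so many of these values mirror each other. A pairing that touches only some genes cannot be told from them. The median change over the members under stress in WT-labelled HSCs ranged from -0.039 to 0.011 and changed sign under 2 alternatives. Depth limits Srsf12 alone among the members. Only 2 libraries stand for each stressed group, so differences among stressed cells rest on few values.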
